A study of Mus musculus with 2 samples.

Results

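The genes described here are 10 mast cell and basophil genes, Cpa3, Mcpt8, Mcpt4, Cma1, Tpsb2, Fcer1a, Ms4a2, Hdc, Srgn and Il1rl1. They were chosen by name, and every probe set that the platform annotation assigns to 1 of them alone was used. This gave 12 probe sets for 9 of the 10 genes, out of 18193 genes with a probe set of their own. No probe set is assigned to Il1rl1 in the annotation used, so its signal was not analysed here. The cells were bone marrow KLS cells, sorted as negative for lineage markers and positive for c-kit and Sca, a fraction rich in haematopoietic stem and progenitor cells. The mutant mice carried a conditional inactivation of the gene for TIF1γ, a transcriptional regulator encoded by Trim33, and their genotype is labelled TIF1γ Δ/Δ. The control mice were wild type. Strain, age, the Cre driver and whether animals were pooled are not stated in the labels. Each genotype had 1 array of total RNA, so no difference has a replicate check, and no p-value or SD between samples can be given.

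Mast cells and basophils are granulocytes that carry the high-affinity receptor for IgE and store histamine and proteases in granules. Both arise in the bone marrow from progenitors that depend on the transcription factor Gata2. In mice, basophils carry the protease Mcpt8, whereas mast cells of connective tissue carry the chymases Cma1 and Mcpt4, the tryptase Tpsb2 and the carboxypeptidase Cpa3. Serglycin, encoded by Srgn, is the proteoglycan core on which these granule contents are packed, and it is made by many blood cell types. Hdc encodes the enzyme that makes histamine, and Il1rl1 encodes the receptor for IL-33.

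The values are MAS5 intensities, a linear brightness summary of each probe set, and intensities of different probe sets are not set against each other. Log2 differences are TIF1γ Δ/Δ minus wild type, less a shared offset of -0.024, the median over all probe sets that passed the floor in both genotypes. Measured here means at or above the median signal of the array's own non-control probe sets, a floor of 11.7 in TIF1γ Δ/Δ and 14.4 in wild type cells. Of the 12 member probe sets, 7 were measured on both arrays, 1 on the wild type array alone, and 4 lay under the floor on both. The 7 measured genes are therefore Cpa3, Mcpt8, Cma1, Fcer1a, Ms4a2, Hdc and Srgn. Mcpt4 and Tpsb2 were under the floor throughout.

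**Figure D1:**
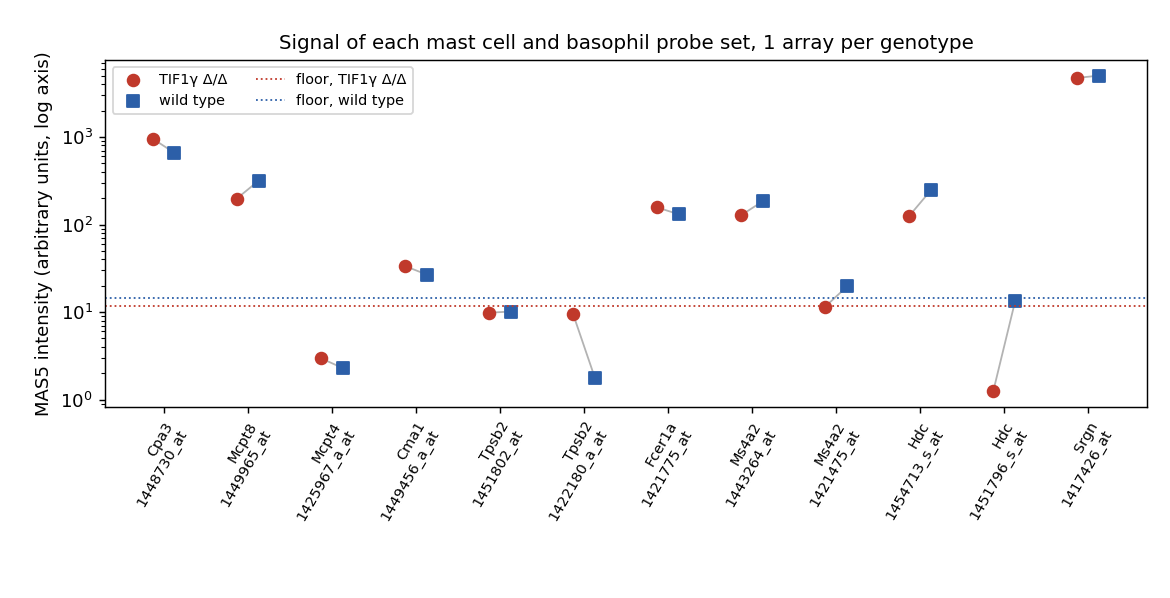
MAS5 intensity (arbitrary units, log axis) of the 12 probe sets of 9 mast cell and basophil genes, with the TIF1γ Δ/Δ array as circles on the left of each pair and the wild type array as squares on the right. Dotted lines are the floors of 11.7 and 14.4, and each pair is read on its own, since probe sets differ in brightness. Cpa3 was 958 in TIF1γ Δ/Δ and 657 in wild type cells, while both Tpsb2 probe sets and that of Mcpt4 lie under the floors.

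Trim33, the inactivated gene, read lower in TIF1γ Δ/Δ cells. By its brightest probe set (1426954_at) the signal was 172 in TIF1γ Δ/Δ and 379 in wild type cells, a log2 difference of -1.12. The labels do not say whether it lies in the deleted part. Kit, the receptor for stem cell factor and a marker of the sort, gave 495 in TIF1γ Δ/Δ and 384 in wild type cells (log2 0.39). The other sort marker, Ly6a, was not analysed here. Genes of neutrophils and macrophages differed far more as a group. Of 23 such markers 21 were at least 2-fold lower, 10 reached the floor in TIF1γ Δ/Δ and 23 in wild type cells, and their summed signal was 6490 in TIF1γ Δ/Δ and 49729 in wild type cells. The 13 under the floor in TIF1γ Δ/Δ cells included the mature markers S100a9, Ltf, Adgre1 and C1qa, named after their values were seen. The 2 under 2-fold were the granule genes Mpo (log2 -0.49) and Prtn3 (log2 -0.88). Another granule gene, Elane, named after its value was seen, was at a log2 of -2.29. For Gapdh, the control probe sets at the 3′ and 5′ ends, which track RNA integrity, differed by a ratio of 7.38 in TIF1γ Δ/Δ and 7.86 in wild type cells. For actin this ratio was 5.54 in TIF1γ Δ/Δ and 5.14 in wild type cells. The 3′ ends thus read several times brighter than the 5′ ends on both arrays, and no quality limit was applied.

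The mast cell and basophil genes differed in both directions, with a spread like that of other genes. Among the 7 measured genes, 3 were higher in TIF1γ Δ/Δ cells (Cpa3, Cma1 and Fcer1a) and 4 lower (Hdc, Mcpt8, Ms4a2 and Srgn). The differences ran from a log2 of -0.96 for Hdc to 0.57 for Cpa3, with a median of -0.065, beside a median of 0.00023 over the 11724 measured genes. The SD of the differences was 0.58 over the 7 genes and 0.68 over all measured genes. None of the 7 was 2-fold apart in either direction, while 2.53% of all measured genes were higher and 6.01% lower by that size, so a count of 0 among 7 does not set these genes apart. At 1.5-fold, 2 of the 7, Hdc and Mcpt8, were lower and 0 higher, against 15.3% of all measured genes lower and 13.5% higher. Probe sets of the same gene disagreed by a log2 SD of 0.45 (4534 genes), which measures probe sets and not mice. Of the 7 differences 4 were larger than this SD, those of Hdc, Mcpt8 and Ms4a2 below 0 and that of Cpa3 above 0. Of all measured genes, 20.1% were higher and 20.8% lower by more than this SD.

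**Figure D2:**
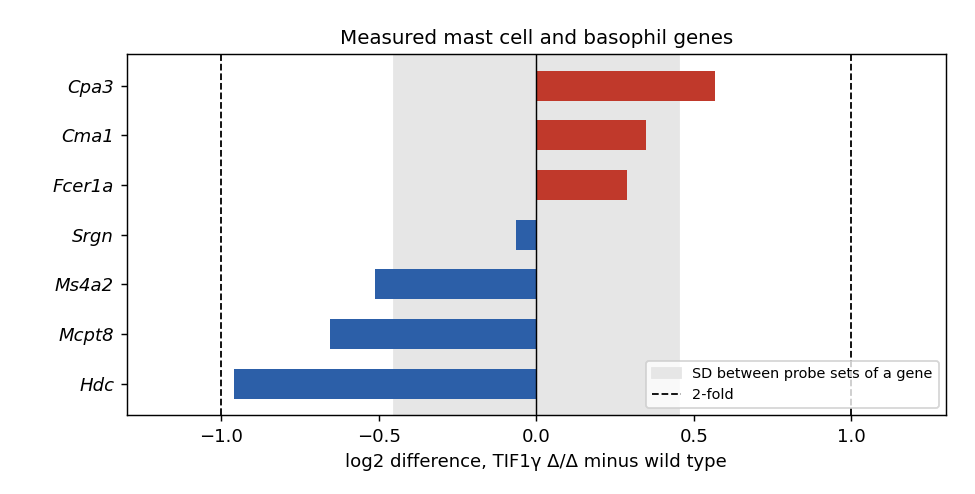
Log2 difference (TIF1γ Δ/Δ minus wild type, centred) of the 7 measured mast cell and basophil genes, with 1 bar per gene from its brightest probe set. The grey band is the SD of 0.45 between probe sets of a gene, dashed lines mark 2-fold, and all 7 bars, from -0.96 for Hdc to 0.57 for Cpa3, end inside the dashed lines.

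Upstream sequence is shown for these 4 genes, the ones furthest apart, because Gata2, whose protein binds GATA motifs, was itself higher in TIF1γ Δ/Δ cells (log2 1.40). Each is the 250 bases before the RefSeq start of the gene in GRCm38.p6, written 5′ to 3′ on the gene's strand, which is the minus strand for all 4. Capitals mark matches to a GATA motif, which was searched on both strands as AGATAA or AGATAG or TGATAA or TGATAG. The windows are chr3:20242182-20242431 for Cpa3, chr14:56085198-56085447 for Mcpt8, chr19:11623720-11623969 for Ms4a2 and chr2:126618679-126618928 for Hdc.
Cpa3: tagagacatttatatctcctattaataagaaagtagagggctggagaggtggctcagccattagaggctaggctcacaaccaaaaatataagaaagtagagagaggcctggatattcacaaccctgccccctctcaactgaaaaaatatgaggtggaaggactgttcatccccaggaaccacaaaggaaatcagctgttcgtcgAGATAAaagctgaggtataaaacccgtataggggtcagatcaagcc
Mcpt8: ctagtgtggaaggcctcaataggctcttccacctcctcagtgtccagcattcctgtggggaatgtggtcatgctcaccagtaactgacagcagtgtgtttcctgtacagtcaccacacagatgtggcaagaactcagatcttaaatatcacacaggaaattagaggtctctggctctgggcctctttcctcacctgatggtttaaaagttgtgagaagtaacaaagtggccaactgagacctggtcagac
Ms4a2: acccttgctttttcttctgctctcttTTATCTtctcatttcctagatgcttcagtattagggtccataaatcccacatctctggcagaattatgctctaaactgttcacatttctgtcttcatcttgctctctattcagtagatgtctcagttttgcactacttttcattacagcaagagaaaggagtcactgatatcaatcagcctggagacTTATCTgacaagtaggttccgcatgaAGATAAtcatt
Hdc: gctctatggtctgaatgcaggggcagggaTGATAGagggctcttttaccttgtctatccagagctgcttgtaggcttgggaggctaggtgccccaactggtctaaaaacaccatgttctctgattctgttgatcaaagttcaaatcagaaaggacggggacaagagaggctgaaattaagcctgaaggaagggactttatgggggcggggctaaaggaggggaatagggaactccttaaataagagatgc

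Cpa3 has 1 match, at -46 to -41 from the start, and Ms4a2 has 3, of which the nearest spans -11 to -6. Hdc has 1 match far from its start, at -221 to -216, and Mcpt8 has none in this window. Of the 10 genes, 9 had an entry in the RefSeq promoter table and Tpsb2 had none. At least 1 match was found for 7 of these 9 genes, and in 8 of their 11 windows, while 26.5% of all 32851 windows of the same length hold one. The 7 include Mcpt4 and Il1rl1, for which no difference is given. Among the measured genes, Cpa3, Cma1 and Fcer1a above 0 and Ms4a2 and Hdc below 0 have a match. Mcpt8 and Srgn, both below 0, have none. The E-box CATGTG, a motif of the kind bound by the mast cell factor Mitf, was also searched on both strands and shares no bases with the GATA matches. It was found for Fcer1a alone among the 9, and in 12.3% of all windows. A match describes the letters and is not a binding site. Any part of Gata2 in these differences was not tested.

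Of the measured granule proteases among the members, Cpa3 and Cma1 were above 0 and Mcpt8 below 0, with Cma1 inside the probe set SD of 0.45. Cpa3, which trims peptides and toxins in mast cell granules, gave 958 in TIF1γ Δ/Δ and 657 in wild type cells. That is 1.48-fold higher, with a log2 difference of 0.57. The chymase Cma1 gave 33.6 in TIF1γ Δ/Δ and 26.8 in wild type cells (log2 0.35, 1.27-fold). Both of its signals lay close above the floor. With the floor at the 65th percentile of each array the value was -0.17. There the wild type signal was set to the higher floor, so this is not a difference between 2 measured signals. Mcpt8, the protease known from mouse basophils, went the other way, with 197 in TIF1γ Δ/Δ and 316 in wild type cells. It was 1.58-fold lower (log2 -0.66).

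The remaining proteases of connective tissue mast cells lay under the floor. Mcpt4, a chymase, read 2.97 in TIF1γ Δ/Δ and 2.30 in wild type cells. The tryptase Tpsb2 read 9.83 in TIF1γ Δ/Δ and 10.1 in wild type cells with 1451802_at. Its other probe set, 1422180_a_at, read 9.57 in TIF1γ Δ/Δ and 1.78 in wild type cells. No fold is given for these 3 probe sets, because all 6 signals lay in the range where MAS5 values are noisy. Of the 4 proteases typical of connective tissue mast cells, Cpa3 and Cma1 were thus measured and Mcpt4 and Tpsb2 were not.

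Histamine synthesis gave the largest difference of the group. Hdc, by its probe set 1454713_s_at, gave 126 in TIF1γ Δ/Δ and 248 in wild type cells, 1.95-fold lower (log2 -0.96). This falls just short of 2-fold, and it passed 2-fold with quantile scaling (log2 -1.04), with loess scaling (log2 -1.09) and with the floor at the 65th percentile (log2 -1.02). The other Hdc probe set, 1451796_s_at, read 1.26 in TIF1γ Δ/Δ and 13.4 in wild type cells, both under the floor. The suffix of both probe set names marks probes that can match more than 1 transcript. Slc18a2, which loads histamine into vesicles and was picked for mention after its value was seen, gave 87.0 in TIF1γ Δ/Δ and 85.0 in wild type cells (log2 0.058).

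The subunits of the IgE receptor did not differ alike. Fcer1a, the alpha chain that binds IgE, gave 157 in TIF1γ Δ/Δ and 131 in wild type cells, 1.22-fold higher (log2 0.29). Ms4a2, the beta chain that amplifies the signal, gave 128 in TIF1γ Δ/Δ and 185 in wild type cells with 1443264_at, 1.43-fold lower (log2 -0.51). Its second probe set, 1421475_at, was at 11.5, under the floor, in TIF1γ Δ/Δ and at 19.6 in wild type cells, which makes it at least 1.65-fold lower. Both probe sets of Ms4a2 therefore pointed the same way, but the second lay close to the floor, where signals are noisy.

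The gamma chain Fcer1g is not one of the 10 genes, but it completes the receptor and differed most. It gave 77.2 in TIF1γ Δ/Δ and 240 in wild type cells, 3.05-fold lower (log2 -1.61). Fcer1g also serves Fc receptors of macrophages and neutrophils, and the markers of those cells were lower on the same array, with a median log2 difference of -4.51. Their part in the Fcer1g, Ms4a2, Hdc and Mcpt8 values was not tested. In bulk RNA, fewer cells of a type and less RNA per cell cannot be told apart.

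Serglycin and the IL-33 receptor complete the group. Srgn gave 4730 in TIF1γ Δ/Δ and 5030 in wild type cells, a log2 difference of -0.065 that lay well inside the scatter between probe sets. Its sign changed with scaling, at 0.097 with quantile and 0.054 with loess scaling. Il1rap, the partner chain of the IL-33 receptor, picked for mention after its value was seen, gave 44.1 in TIF1γ Δ/Δ and 47.8 in wild type cells (log2 -0.092).

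The wider pathways of these cells were described through 9 lists of 148 gene entries, of which 111 were measured. Past 2-fold, 2 entries were higher and 7 lower on the TIF1γ Δ/Δ array, set against the 2.53% and 6.01% of all measured genes. Other granule proteases had 0 of 4 measured genes past 2-fold and a median of -0.47. That median lies between Mcpt2 (log2 -0.10) and Prss29 (log2 -0.83), both named after their values were seen. Each was measured on 1 array alone, with its other signal set to the floor. Mcpt2 read 13.2 in TIF1γ Δ/Δ and 5.86 in wild type cells. The list median was -0.19 after quantile scaling, -0.12 under a 40th percentile floor and 0.023 when no floor was used. Its sign is thus not settled. Ctsg, the serine protease cathepsin G of neutrophils and mast cells, gave 2350 in TIF1γ Δ/Δ and 4519 in wild type cells (log2 -0.92). Gzmb, a granzyme of cytotoxic cells, gave 89.1 in TIF1γ Δ/Δ and 53.3 in wild type cells (log2 0.76). Granule assembly, histamine storage and proteoglycan synthesis had 0 of 18 past 2-fold and a median of -0.12. The lysosomal membrane gene Lamp2 was at a log2 of -0.36 and Ctsc, the protease that activates granule proteases, at -0.11.

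Genes of IgE receptor signalling had a median of 0.30, with 12 of 19 above 0, 0 higher and 2 lower past 2-fold. The 2 lower genes were Fcer1g and the protein kinase C gene Prkcb, which gave 23.8 in TIF1γ Δ/Δ and 69.8 in wild type cells (log2 -1.53). Both measured probe sets of Prkcb were below 0. For IL-33 receptor signalling the median was also 0.30, with 9 of 14 above 0 and 1 gene, the kinase relative Irak2, at least 2-fold lower (log2 -1.03). With quantile and loess scaling Irak2 was at -0.79 and -0.85, short of 2-fold. With the floor at the 65th percentile both Irak2 signals lay under it, so no value was given. Both medians were smaller but above 0 with quantile scaling (0.23 and 0.24) and with loess scaling (0.18 each). They rest on the brightest probe set of each gene, and for some genes of both lists other measured probe sets pointed the other way. Other probe set rules were not tried for these lists.

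Transcription factors of these lineages held both list entries at least 2-fold higher. Gata2 gave 472 in TIF1γ Δ/Δ and 182 in wild type cells (log2 1.40), and both of its measured probe sets were above 0. Cebpa, which favours granulocyte fates, gave 63.1 in TIF1γ Δ/Δ and 24.4 in wild type cells (log2 1.39). It was at 0.74 with the floor at the 65th percentile, where its wild type signal was set to the floor. Bhlhe40, a basic helix-loop-helix factor, was lower, with 16.8 in TIF1γ Δ/Δ and 36.6 in wild type cells (log2 -1.10), and at -0.86 with quantile and -0.92 with loess scaling. With the floor at the 65th percentile both Bhlhe40 signals lay under it, so no value was given. The median of the 20 factors was 0.20. Gata1 (log2 -0.18) and Mitf (log2 -0.31), both named after their values were seen, were under 2-fold apart.

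Growth factor and cytokine receptors had a median of -0.12 and 1 of 10 past 2-fold, the IL-18 receptor chain Il18r1, with 30.7 in TIF1γ Δ/Δ and 77.4 in wild type cells (log2 -1.31). Lipid mediator synthesis had a median of -0.12 and 1 of 9 past 2-fold, the prostaglandin synthase Ptgs2, with 32.8 in TIF1γ Δ/Δ and 72.6 in wild type cells (log2 -1.12). Of 10 other surface genes 1 was past 2-fold, the inhibitory receptor Pilra, at least 3.43-fold lower with 7.66 in TIF1γ Δ/Δ cells, under the floor, and 40.6 in wild type cells. With the floor at the 65th percentile Pilra was at a log2 of -0.41. The median of these surface genes was -0.52 with 1 lower, but 0.0038 with 0 lower at that floor, -0.55 with 4 lower at the 40th percentile and -0.37 with 5 lower and 1 higher without a floor. Cytokines had a median of 0.095 and 0 of 7 past 2-fold. Tnf, named after its value was seen and measured in TIF1γ Δ/Δ cells alone, passed 2-fold with quantile (log2 1.19) and loess scaling (log2 1.16). Il4, also named after its value was seen, was measured in wild type cells alone and lay below 0 (log2 -0.95). It read 3.03 in TIF1γ Δ/Δ and 22.9 in wild type cells. The cytokine median was 0.35 after quantile and 0.30 after loess scaling. Under a 40th percentile floor the median was -0.15, with 1 lower and 1 higher past 2-fold. When no floor was used the median was -0.48, with 4 lower and 2 higher, so its sign is not settled. The chemokines named by rule were Ccl3, at 196 in TIF1γ Δ/Δ and 296 in wild type cells (log2 -0.57), and Ccl4, at 158 in TIF1γ Δ/Δ and 104 in wild type cells (log2 0.63). Pilra, Ptgs2 and Prkcb are also made by other myeloid cells, and the part of the lower neutrophil and macrophage markers in these values was not tested.

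**Figure D3:**
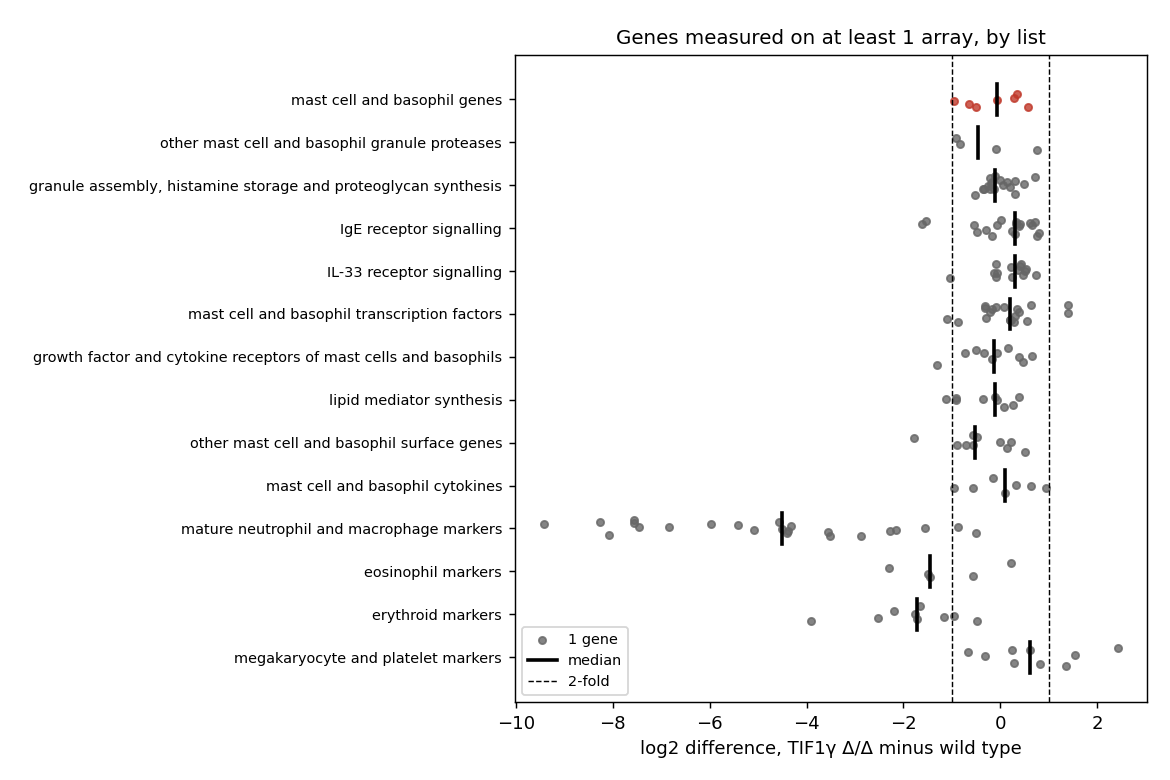
Log2 difference (TIF1γ Δ/Δ minus wild type, centred) of every gene measured on at least 1 array, by list, where 1 point is 1 gene, the black bar is the list median, and a signal under the floor was set to the floor. The mast cell and basophil genes lie between -0.96 and 0.57, whereas mature neutrophil and macrophage markers have a median of -4.51.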

How the data were processed

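The deposited values were intensities, 1 per probe set and array. Per the submitters' processing notes, the authors used MAS5, with version and filters not given in the sources used here. Detection calls played no part. After trimming 2% of the 45101 probe sets at each end, the mean was 100.001 on both arrays, so the authors had scaled each array. The number of arrays limits the precision.

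The 64 control probe sets were left out. Symbols were updated by Entrez identifier to RefSeq GRCm38.p6, and probe sets annotated to several genes named none. The brightest probe set by mean log2 signal represented a gene. Log2 differences were centred on the median. A signal under the floor on 1 array was set to the floor, which gives a bound for genes lower on the TIF1γ Δ/Δ array. Because that array's floor was lower, a gene measured on it alone can get a value below 0. Such values entered list medians.

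With 1 array per group there was no test, and genes were counted by a rule of size, 2-fold. The text names all members, up to 4 genes past 2-fold per pathway list or otherwise its 2 brightest by mean log2 signal over both arrays, the 2 brightest, so ranked, of each marker list it uses, Kit, Ly6a and Trim33. Other genes are marked as named after their values were seen. Members and lists were chosen with earlier results of these data known. Alternatives changed scaling, floor, probe set rule, pseudocount and threshold. The procedure was tested on simulated data, a copy of the wild type array with large known changes in bright genes. That does not test differences under 2-fold or signals near the floor. Python 3.11.15, numpy 2.4.6, pandas 2.3.3, statsmodels 0.14.6 and matplotlib 3.10.9 were used. Upstream sequences are from RefSeq, GRCm38.p6.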

Additional observations from a re-analysis of the deposited data

How the results depend on the processing

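A value was taken to hold when it moved by less than the probe set SD of 0.45, and the median of the 7 genes when it moved by less than 0.17. Cpa3 (0.49 to 0.66), Fcer1a (0.16 to 0.38), Hdc (-1.09 to -0.87), Mcpt8 (-0.79 to -0.56) and Ms4a2 (-0.64 to -0.42) kept their sign under every alternative that gave a value. For these genes a changed floor moved the value only through the shared offset, and averaging probe sets changed Ms4a2 alone. The limit of 0.45 is wider than the Fcer1a difference of 0.29, and every alternative used the same 2 arrays. Cma1 was at -0.17 with the 65th percentile floor, where its wild type signal was set to the floor, and above 0 in the other 7. Srgn ranged from -0.12 to 0.097 and the median from -0.17 to 0.097, so neither has a settled sign. The count of genes at least 2-fold lower, 0 as reported, was 1 (Hdc) with quantile scaling, 1 with loess scaling, 1 with the 65th percentile floor and 2 at a 1.5-fold threshold. The count higher was 0 in all 11 alternatives. Without probe sets shared between transcripts, Cma1 and Hdc gave no value. Over all genes, the counts past 2-fold were 297 higher and 705 lower, against 2025 and 2784 with no floor, 170 and 412 with the 65th percentile floor, 176 and 418 with a pseudocount of 16, and 176 and 652 with the mean of all probe sets. With no floor, Tpsb2 was at 0.073 and Mcpt4 at 0.49, both from signals that low intensities make unreliable. No paired analysis was possible because each genotype had 1 array, and no array could be left out.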

Other observations

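Cma1, Mcpt4 and Mcpt8 lie in a cluster of granule protease genes on mouse chromosome 14 that runs from Cma1 to Gzmb in the RefSeq order and holds 15 protein-coding genes. Of these, 4 were measured on both arrays, 1 on a single array, 8 lay under the floor on both and 2 had no probe set of their own. The 4 measured genes were Cma1, Mcpt8, Ctsg and Gzmb. Adjacent genes in the middle of the cluster, Mcpt8 (log2 -0.66) and Ctsg (log2 -0.92), were both below 0. Cma1 (log2 0.35) and Gzmb (log2 0.76) at its ends were above 0, but the Cma1 value lay inside the probe set SD and close to the floor. Mcpt2, measured in TIF1γ Δ/Δ cells alone, was at -0.10 with its wild type signal set to the floor. All 6 genes between Ctsg and Gzmb, which are granzymes, lay under the floor.

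Eosinophils are also granulocytes, and 3 of 5 measured eosinophil markers were at least 2-fold lower, with a median of -1.46. Prg2, the eosinophil major basic protein, which basophils also make, gave 116 in TIF1γ Δ/Δ and 582 in wild type cells (log2 -2.31). Siglecf, a surface lectin of eosinophils, gave 87.2 in TIF1γ Δ/Δ and 76.1 in wild type cells (log2 0.22). With the 65th percentile floor 1 eosinophil marker was at least 2-fold lower, and the median was -0.48. Erythroid markers were at least 2-fold lower in 7 of 9 measured genes (median -1.71), with the carbonic anhydrases Car2 at a log2 of -0.49 and Car1 at -1.65. Platelet markers were at least 2-fold higher in 3 of 9 (median 0.62), with Pf4, a platelet chemokine, at 1713 in TIF1γ Δ/Δ and 1134 in wild type cells (log2 0.62), and the integrin gene Itga2b at 0.83.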
